A study of Mus musculus with 3 samples.

Results

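The genes described here make fatty acids and build them into glycerolipids. The set was given as a list of 32 genes named for their function, drawn up with earlier results of these data known, out of 24841 genes on the array. It was followed in Hepa1c1c7, a cell line from a mouse liver tumour. All 3 cultures were transfected, and they carried either the empty vector, which is the control, or a vector expressing Cd74 or Tmem54. Cd74 is the invariant chain of MHC class II and a receptor for the cytokine MIF, and Tmem54 is a transmembrane protein. Total RNA of each culture was read on 1 Agilent array of 1 colour, so each group is 1 array with no replicate. The promoter of the vectors, the time after transfection and whether the cells were 1 clone are not given in the sources used here.

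Of the 32 genes, 28 could be compared, since they had a probe well above background on 1 or more of the arrays. The other 4 were Elovl2 and Elovl3, elongases of very long chain fatty acids, Thrsp, a nuclear protein induced along with lipogenic enzymes in liver, and Pnpla3, a lipid droplet protein with lipase and acyltransferase activity. None of their 6 probes was well above background on any array, and their signals, from 2.66 to 9.17, have no order.

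In liver cells, citrate leaves the mitochondrion and is split into acetyl-CoA, which carboxylases and fatty acid synthase turn into palmitate. Elongases and desaturases then lengthen the chain and place double bonds, and acyltransferases attach the products to glycerol 3-phosphate on the way to phospholipid and triglyceride. SREBP1 and ChREBP are the transcription factors best known for raising these genes with insulin and glucose, while the related SREBP2 mainly serves sterol synthesis.

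The number of spots well above background lay between 33049 and 33896 per array, and no spot other than controls was saturated. The transfected genes checked the labels, since the Cd74 probe read 10856 on the array of the Cd74 vector against 26.8 and 22.4 on the others, and the Tmem54 probe read 19747 on its own array and was not well above background elsewhere. Of 16 hepatocyte markers, 9 were well above background on every array, among them Alb, Afp and Trf, and 7 were on none (Ttr, Apoa1, Apob, Apoh, Fgb, Hnf4a and Cps1). The hepatocyte markers that were compared differed from the empty vector by a median of -0.20 with Cd74 and 0.05 with Tmem54, and their summed signal was between 147676 and 159149. Alb itself read 5727 with the empty vector, 2993 with Cd74 and 10261 with Tmem54. Of 11 macrophage and B cell markers 7 or 8 were well above background (summed signal 11149 to 12312; Adgre1, Clec4f and Cd79a on none), and of 11 fibroblast markers 8 were (82582 to 92041; Lrat, Lum and Thy1 on none). Of 7 cholangiocyte markers 5 or 6 were (34387 to 44136; Epcam on none), of 7 endothelial markers 4 were (238 to 298; Cdh5, Kdr and Tek on none), and of 7 adipocyte markers 4 were (341 to 397; Adipoq, Plin1 and Cfd on none). Dcn made up most of the fibroblast sum. The median difference of the fibroblast markers was -0.14 with Cd74 and 0.11 with Tmem54, on the same sides as the desaturases. Col1a1 lay at -0.76 and 0.31 and Pdgfrb at -0.55 and 0.20, while Dcn lay on the opposite sides, at 0.22 and -0.26. Col1a2, Pdgfra and Des each lay at -0.02 with Cd74, and 3 of the 8 markers lay below 0 with Tmem54. Between the vectors 2 of these 8 markers were at least 2-fold lower with Cd74, where 1.69% of all genes were. The adipocyte markers had a median of -0.48 with Cd74 and -0.09 with Tmem54. The part of these markers in the differences of the lipid genes was not tested. Because RNA of whole cultures was measured, fewer cells with a transcript and less transcript per cell cannot be told apart.

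Values are processed signals, which are linear and in arbitrary units, and differences are on the log2 scale after each array was scaled to its own 75th percentile. The error given with a difference is the model error of the scanner software, about 0.20 for bright probes, and holds no spread between cultures. No difference was tested, because there is 1 array per vector. Genes were counted by a 2-fold rule, and by a 1.5-fold rule (0.58 on the log2 scale) where so stated. Where 1 of the arrays was not well above background, the difference is a bound, written as at least N-fold.

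The median difference of the set was -0.09 with Cd74 and 0.004 with Tmem54, and a few single genes lay far from these medians. On the Cd74 array 20 of the 28 genes lay below the empty vector and 8 above, with a median difference of -0.09 against 0.01 over all 15630 genes compared, of which 47.6% lay below 0. By the 2-fold rule 1 of 28 was lower (Gpam) and 0 were higher, where 1.4% of all genes were lower and 1.02% higher. By the 1.5-fold rule 4 were lower (Gpam, Scd2, Acss2 and, as a bound, Mogat1) and 2 higher (Lpin3 and Dgat2), where 4.14% of all genes were lower and 3.38% higher. The 4 lower became 2 with normexp background correction (Acss2 at -0.50 and Mogat1 at -0.11), 3 with the mean over the probes of a gene, 1 of 23 with bright probes only and 0 of 18 with next-brightest probes. The 2 higher became 1 and 0 with the last pair. On the Tmem54 array 14 genes lay below and 14 above the empty vector, with a median of 0.004 against -0.003 over all 15521 genes, of which 51.0% lay below 0. Here Gpam alone was lower by either rule and 0 were higher, where 0.812% of all genes were at least 2-fold lower and 0.522% higher, and 2.49% were at least 1.5-fold lower and 1.32% higher. These shares over all genes include bounds of dim probes. Among genes measured on both arrays, 3.23% were at least 1.5-fold lower with Cd74, beside 3 of 27 members. Both comparisons use the same empty-vector array, so the members' values are given side by side and no overlap is drawn from them. The differences of 16 members on the Cd74 array and of 23 on the Tmem54 array were smaller than their model error. This was not counted over all genes. The spread of all measured genes, as a scaled median absolute deviation, was 0.22 with Cd74 and 0.10 with Tmem54.

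**Figure D1:**
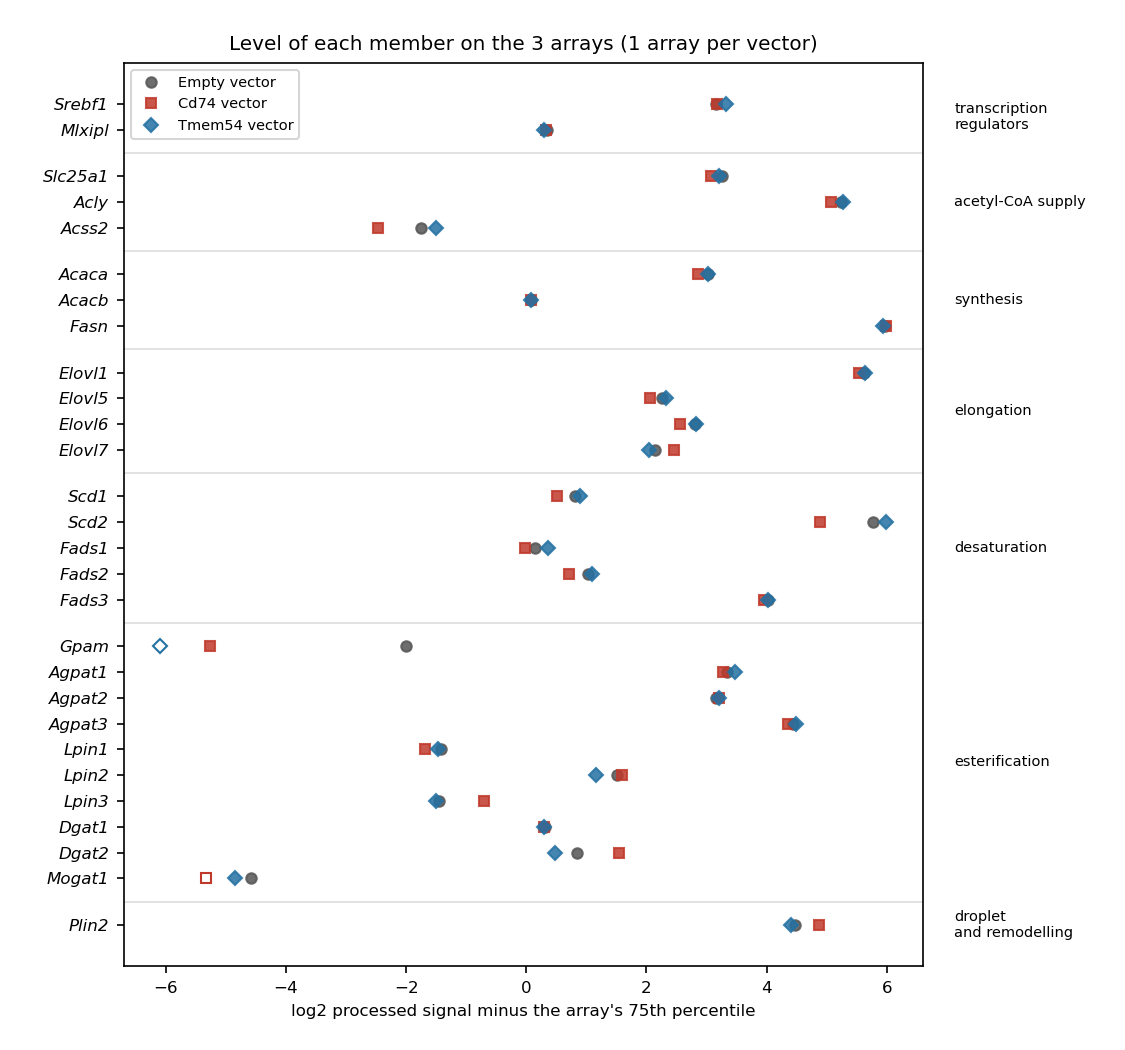
Level of the 28 detected genes on the 3 arrays, as log2 processed signal minus the array's 75th percentile, by step of the pathway, with open symbols for a probe not well above background. Symbols should be compared within a gene and not between genes, and most triplets overlap, while Gpam reads -2.00 with the empty vector, -5.26 with Cd74 and -6.09 with Tmem54.

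Both transcription factors read nearly the same on every array. Srebf1, which encodes SREBP1, read 6099 with the empty vector, 5933 with Cd74 and 6906 with Tmem54. The differences from the empty vector were 0.03 ± 0.20 and 0.17 ± 0.20, within the model error. Mlxipl, which encodes the glucose-responsive factor ChREBP, read 873 with the empty vector, 819 with Cd74 and 849 with Tmem54, and its 3 probes lay between -0.03 and 0.002 for Cd74.

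All 3 genes for acetyl-CoA supply read lower on the Cd74 array, with a median of -0.18, and the gene for making acetyl-CoA from acetate differed most. Slc25a1, the mitochondrial citrate carrier, read 6541 with the empty vector, 5552 with Cd74 and 6426 with Tmem54. Acly, which cleaves exported citrate into acetyl-CoA, read 26017, 21954 and 26601 in the same order. The Cd74 differences of both, -0.17 ± 0.20 and -0.18 ± 0.20, were within the model error. Acss2, the cytosolic enzyme that joins acetate to coenzyme A, read 203 with the empty vector, 118 with Cd74 and 246 with Tmem54. Acss2 was thus lowest with Cd74 and highest with Tmem54, with differences of -0.72 ± 0.21 and 0.26 ± 0.21 from the empty vector. Its further probes were dimmer and did not all lie on one side, at -0.08 ± 0.28 and 0.49 ± 0.37 for Cd74, while all 3 lay above 0 for Tmem54. The mean over its probes gave -0.10 for Cd74.

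Genes for the steps that make palmitate itself differed by less than the model error at their brightest probes. Fasn, fatty acid synthase, read 43196 with the empty vector, 41660 with Cd74 and 42345 with Tmem54, which gave differences of 0.01 ± 0.20 and -0.04 ± 0.20. Acaca, the cytosolic acetyl-CoA carboxylase that commits carbon to fatty acid synthesis, read 5577, 4779 and 5604 at its brightest probe, with differences of -0.16 ± 0.20 and -0.01 ± 0.20. Its 6 detected probes ranged from -0.70 to 0.28 for Cd74, with 5 below 0, and the probes at both ends were dim, at signals of 33.6 and 17.6 with the empty vector. Acacb, the carboxylase at the mitochondrion whose product restrains fatty acid oxidation, read 729, 691 and 730 at its brightest probe. Its next-brightest probe gave 0.27 for Cd74 and -0.32 for Tmem54, on opposite sides of the control.

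The promoters of Acss2 and Fasn are shown because Acss2 differed with Cd74 at its brightest probe and Fasn did not. The dimmer probes of Acss2 did not share that difference, and the part of the promoter letters in it was not tested. Each is the 250 bases before an annotated start in RefSeq, build GRCm38.p6, read 5′ to 3′ on the strand of the gene, and capitals mark CCAAT or its complement ATTGG, the box bound by NF-Y. The Acss2 stretch is chr2:155517793-155518042 on the plus strand, with 1 match at position -73 from the start. The Fasn stretch is chr11:120824548-120824797 on the minus strand, with matches at -90, -62 and -59, of which the last 2 share letters.
Acss2: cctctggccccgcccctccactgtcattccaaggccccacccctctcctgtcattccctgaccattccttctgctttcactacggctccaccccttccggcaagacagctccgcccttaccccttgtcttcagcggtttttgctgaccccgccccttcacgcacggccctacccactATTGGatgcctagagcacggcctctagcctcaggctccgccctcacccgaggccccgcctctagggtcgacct
Fasn: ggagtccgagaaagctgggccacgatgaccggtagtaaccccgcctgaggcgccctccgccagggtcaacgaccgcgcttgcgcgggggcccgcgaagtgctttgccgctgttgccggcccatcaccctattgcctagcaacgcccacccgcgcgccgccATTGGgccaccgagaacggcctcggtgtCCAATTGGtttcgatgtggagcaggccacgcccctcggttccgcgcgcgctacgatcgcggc

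Promoter windows of 300 bases (250 before the start to 50 after) were found for 26 of the 32 genes, in 36 windows, and were searched on both strands. None was found for Scd1, Scd2, Fads1, Dgat1, Dgat2 and Elovl3, so the shares below do not cover these genes. CCAAT was present for 17 of the 26 genes, or 65.4%, against 41.1% of 27025 RefSeq genes with such a window, which include noncoding genes. The E-box CACGTG was present for 6, or 23.1%, against 8.09% of all genes. The sterol response element TCACNCCAC was present for 1 (Mlxipl, at -136 of its second window), or 3.85%, against 1.44%. These shares count a gene once if any of its windows matches, so a gene with more windows has more places for a match. Counted by window, CCAAT was in 18 of the 36, against 37.4% of 32851 windows of all genes. The E-box was in 6 of the 36, against 7.15%, and the sterol response element in 1, against 1.24%. No difference in these shares was tested. A match is a description of the letters and not of a site in use.

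Among elongases the Cd74 differences were small and of both signs. Elovl6, which extends palmitate to stearate, read 4825 with the empty vector, 3847 with Cd74 and 4927 with Tmem54, lowest with Cd74 at -0.26 ± 0.20. Elovl5, which extends polyunsaturated chains, read 3270, 2745 and 3480, a Cd74 difference of -0.19 ± 0.20. Elovl1, an elongase of saturated very long chains, read 33734, 30289 and 34565, and its Cd74 difference of -0.09 was within the model error of 0.20. Elovl7 stood on the other side, at 3024 with the empty vector, 3587 with Cd74 and 2859 with Tmem54, a Cd74 difference of 0.31 ± 0.20. On the Tmem54 array these 4 genes lay between -0.09 and 0.08.

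Desaturases were the step with the most even pattern. All 5 genes lay below the empty vector on the Cd74 array, with a median of -0.30, and all 5 lay above it on the Tmem54 array, with a median of 0.08. Scd2, a stearoyl-CoA desaturase that introduces the first double bond into saturated chains, read 37654 with the empty vector, 19319 with Cd74 and 43741 with Tmem54. Scd2 was 1.86-fold lower with Cd74 than with the empty vector (-0.90 ± 0.20) and 0.20 ± 0.20 higher with Tmem54. Only 1.19% of the 14693 genes measured on both arrays lay further down with Cd74. Scd2 was read by 1 probe (chr19:44381024-44381083, build mm9, plus strand).

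Scd1, its paralog and the main stearoyl-CoA desaturase of adult liver, read 1208 with the empty vector, 936 with Cd74 and 1284 with Tmem54, a Cd74 difference of -0.30 ± 0.20. A dim second probe named Scd1, which lies on the strand opposite to the first, gave -0.35 ± 0.38. Fads2, the delta-6 desaturase at the first step from essential to long polyunsaturated fatty acids, read 1391, 1078 and 1481 in the same order. All 5 of its probes lay below 0 on the Cd74 array, from -0.49 to -0.30. Fads1, the delta-5 desaturase of the same path, read 762, 647 and 894, and its 3 probes ranged from -0.55 to 0.04 for Cd74. Fads3, the third gene of this cluster on chromosome 19, read 11093, 10229 and 11299 and hardly differed, at -0.05 ± 0.20 with Cd74.

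Counted by probe, 12 of the 13 detected desaturase probes lay below the empty vector with Cd74, 10 of 13 lay above it with Tmem54, and all 13 read lower with Cd74 than with Tmem54. Probes of 1 gene share their transcript and are not replicates. The 5 genes lay below 0 with Cd74 under each of the scalings tried, which were normexp background correction, centring on the median and quantile normalization. With Tmem54 the normexp correction put 1 of the 5 below 0, as did the mean over the probes of each gene. The Tmem54 differences of all but Fads1 (0.22 ± 0.20) were within the model error.

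**Figure D2:**
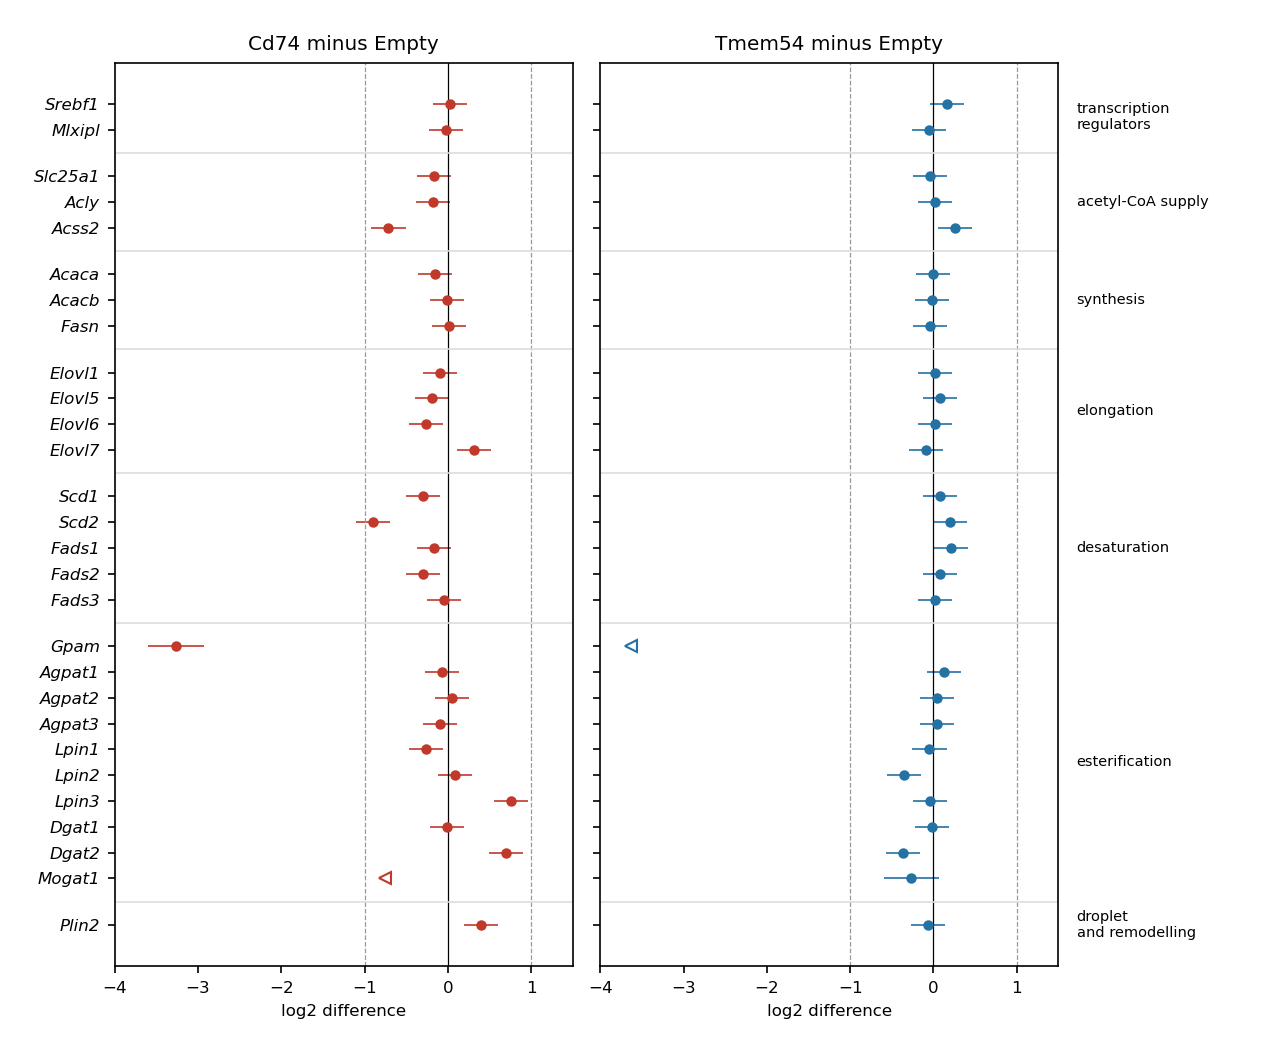
Log2 difference of each gene from the empty vector, Cd74 on the left and Tmem54 on the right, with bars for the model error of the processed signal, dashed lines at 2-fold and open triangles for bounds, where the true difference is at or beyond the triangle. Gpam stands far to the left on both sides (-3.26 and a bound of -3.63), on the Cd74 side Scd2 and Acss2 lie to the left and Dgat2 and Lpin3 to the right, and most bars on the Tmem54 side cross 0.

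Esterification held the largest difference of all, at Gpam, which encodes the mitochondrial glycerol-3-phosphate acyltransferase of the first acylation step. Its detected probe (chr19:55142203-55142262, build mm9, minus strand) read 171 with the empty vector, 17.1 with Cd74 and 10.1 with Tmem54, where it was not well above background. The raw pixel means of the spot were 203, 49.6 and 47.6 over local background medians of 25, 24 and 22. The control thus stood alone, 9.58-fold above Cd74 (-3.26 ± 0.34) and at least 12.4-fold above Tmem54. No other gene measured on both arrays lay further down with Cd74 (0 of 14693).

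Limits on this value are that the probe was dim and that it was the only one detected. Normexp background correction, which compresses dim signals, gave -1.39 for Cd74 and -1.47 for Tmem54. The probe is listed for a predicted RefSeq transcript of Gpam, and a second probe, listed for the known transcript (chr19:55145403-55145462), was not well above background on any array, at signals of 2.83, 3.04 and 3.22. Of the 24 spots around the detected probe, those well above background on both arrays had a median difference of -0.09 with Cd74 (13 spots) and -0.22 with Tmem54 (14 spots, the lowest at -2.65). Over all 15335 genes with a value in both comparisons, 0.502% were at least 2-fold lower on both vector arrays, and such genes share the single control array.

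RefSeq gives Gpam promoter windows at 2 starts, which are shown because the 2 probes are listed for different transcripts. Each is 250 bases before a start on the minus strand, build GRCm38.p6, at chr19:55099478-55099727 and chr19:55127239-55127488. Capitals mark the complement of CCAAT, found at -74 of the second start, and none of the 3 motifs searched is present in the first window. The arrays do not show which start was in use.
Gpam, first window: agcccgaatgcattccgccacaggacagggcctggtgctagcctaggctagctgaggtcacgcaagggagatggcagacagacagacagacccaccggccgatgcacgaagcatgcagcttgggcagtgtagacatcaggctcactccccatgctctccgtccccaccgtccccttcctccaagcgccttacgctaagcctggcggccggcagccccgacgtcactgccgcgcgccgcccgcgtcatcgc
Gpam, second window: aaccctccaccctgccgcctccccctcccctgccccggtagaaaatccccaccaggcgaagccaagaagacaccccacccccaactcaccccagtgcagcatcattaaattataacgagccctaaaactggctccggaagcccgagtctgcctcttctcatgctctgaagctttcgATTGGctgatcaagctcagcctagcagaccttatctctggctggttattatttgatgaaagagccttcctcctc

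Of the glycerol-3-phosphate acyltransferase genes Gpat2, Gpat3 and Gpat4 and the members Agpat1, Agpat2 and Agpat3, only Gpat2 exceeded its model error, at a dim probe (-0.57 ± 0.28 with Tmem54). Gpat3 and Gpat4, which encode the acyltransferases of the endoplasmic reticulum for the same reaction as Gpam, differed by -0.09 and 0.10 with Cd74 and by 0.05 and 0.11 with Tmem54. Agpat1, Agpat2 and Agpat3, which add the second acyl chain to form phosphatidic acid, read 6987, 6111 and 14899 with the empty vector, 6336, 6031 and 13361 with Cd74 and 7674, 6359 and 15461 with Tmem54. Their differences from the empty vector lay between -0.09 and 0.12 on both arrays, all within the model error.

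Lipins, the phosphatidate phosphatases that yield diacylglycerol, differed from one another. Lpin3 read 250 with the empty vector, 405 with Cd74 and 246 with Tmem54. Lpin3 was thus higher on the Cd74 array alone, by 1.70-fold (0.76 ± 0.20), and 1.03% of genes measured on both arrays lay further up. Lpin1, which also acts as a transcriptional coactivator, read 257, 204 and 251, a Cd74 difference of -0.27 ± 0.21. Lpin2 read 1949, 1970 and 1544, so that the Tmem54 array was the low one, at -0.35 ± 0.20. Its 3 probes measured on all arrays lay between -0.35 and -0.18 for Tmem54 and between -0.02 and 0.08 for Cd74.

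At the last step, which completes triglyceride, Dgat2 differed and Dgat1 did not exceed the model error. Dgat2, the diacylglycerol acyltransferase tied to newly made fatty acids, read 1231 with the empty vector, 1906 with Cd74 and 961 with Tmem54. Dgat2 was highest with Cd74 (0.70 ± 0.20, 1.62-fold) and lowest with Tmem54 (-0.37 ± 0.20), and it was read by 1 probe. Dgat1, an unrelated enzyme of the same reaction, read 850, 807 and 848, with differences of -0.01 and -0.02. Mogat1, which acylates monoacylglycerol, was dim at 28.9, 16.3 and 24.2, and was not well above background with Cd74. It was at least 1.69-fold lower there than with the empty vector by the main scaling and -0.11 by normexp correction.

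Plin2, which coats lipid droplets and is stabilised by stored lipid, was the only droplet gene of the set with a signal. It read 15216 with the empty vector, 19129 with Cd74 and 14629 with Tmem54. The Cd74 difference was 0.40 ± 0.20 at the bright probe and 0.34 ± 0.20 at the second, and the Tmem54 differences were -0.07 and -0.14. Plin2, Dgat2, Lpin3 and Elovl7 were thus the members above 0.3 on the Cd74 array.

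**Figure D3:**
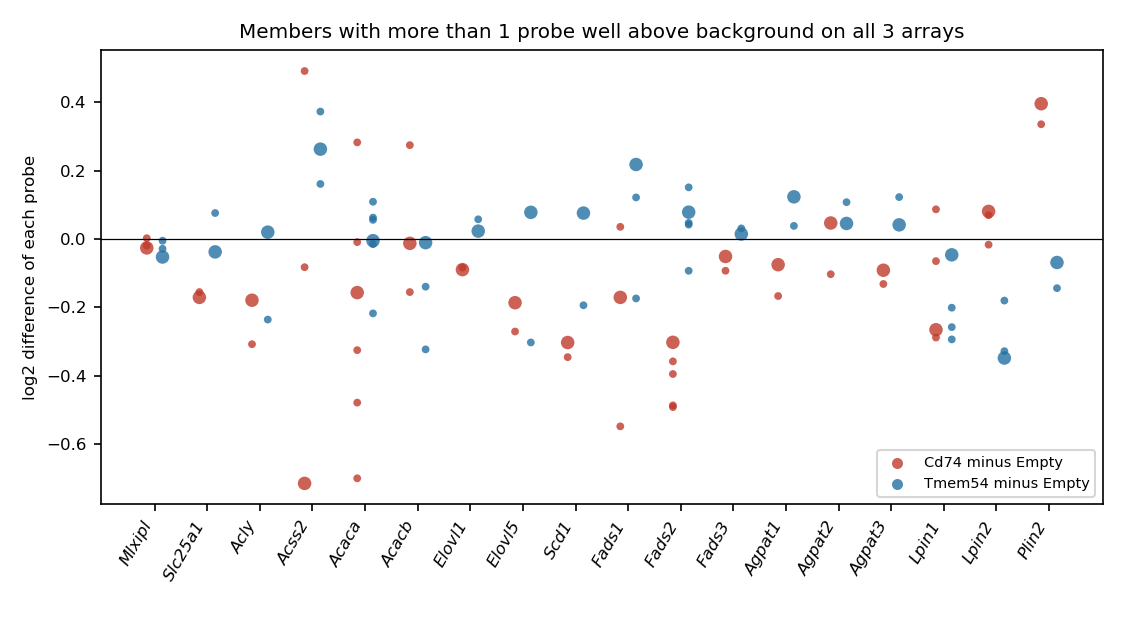
Log2 difference from the empty vector of each probe well above background on all 3 arrays, for the 18 members with more than 1 such probe, where the large point is the brightest probe of a gene and small points are its further probes. The 5 Fads2 probes lie together below 0 with Cd74, both Plin2 probes lie above 0, and the probes of Acss2 and Acaca spread over both sides.

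Set directly against each other, Cd74 and Tmem54 differed by at least 2-fold at 2 members. Dgat2 was 2.09-fold higher with Cd74 (1.07 ± 0.20) and Scd2 2.15-fold lower (-1.10 ± 0.20), where 1.63% of 15423 genes were higher and 1.69% lower. Normexp correction put Dgat2 at 0.99, just under 2-fold. By the 1.5-fold rule Lpin3 (0.80) joined the higher side and Acss2 (-0.98) the lower, where 5.07% of all genes were higher and 4.79% lower. Of the 28 genes, 18 lay below 0 in this contrast, with a median of -0.13 against 0.03 over all genes, of which 45.6% lay below 0. Desaturation had the lowest median of any step, at -0.38, followed by acetyl-CoA supply at -0.20 and elongation at -0.19, while synthesis stood at -0.002 and esterification at 0.003. On the Tmem54 array 13 members had their highest value of the 3 arrays, and 17 had their lowest with Cd74. The same order was not counted over all genes, so these counts have no background. Several of the orders rest on ranges below the model error, such as 0.01 at Acacb and 0.02 at Dgat1. The contrast of Cd74 with Tmem54 does not use the control array but shares 1 array with each of the others.

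Neighbouring genes were read from lists that had been named with earlier results of these data known. On the Cd74 array 8 of 10 SREBP processing genes lay below 0, with a median of -0.10, 1 was at least 1.5-fold lower and 0 were 2-fold apart. With Insig1, Sec24d, Srebf2 and Mbtps1, a protease that cleaves SREBP, 4 of the 10 exceeded the model error. The share of all genes exceeding it was not counted, so this count has no background. The spread of all measured genes with Cd74, 0.22, was itself about the size of that error. Srebf2, which encodes SREBP2, differed by -0.30 with Cd74, and Mbtps1 by -0.26. Insig1, the retention protein whose gene is itself an SREBP target, read 164 with the empty vector, 99.1 with Cd74 and 142 with Tmem54, a Cd74 difference of -0.66 ± 0.21. Sec24d, a coat subunit of vesicles leaving the endoplasmic reticulum, differed by -0.44. Of 8 detected LXR genes and cofactors, 0 were 2-fold apart, with a median of -0.03 for Cd74, and the LXR target Abca1, a cholesterol exporter, differed by -0.63 ± 0.20 with Cd74 and 0.11 with Tmem54. The coactivator gene Ppargc1b differed by 0.27 with Cd74, and with Tmem54 the furthest were Mid1ip1, an activator of acetyl-CoA carboxylase, at 0.29 and Mlxip, a glucose-responsive factor, at -0.26. The genes for NADPH supply had a median of -0.05 for Cd74 over 11 members, with 9 below 0, 0 at 1.5-fold and the widest differences at Pgd, of the pentose phosphate path, at 0.34 and the isocitrate dehydrogenase gene Idh2 at -0.25. With Tmem54 they were at Idh1 (0.20) and Pgd (-0.17).

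Sterol synthesis stood apart from fatty acid synthesis in size. On the Cd74 array the 21 detected sterol synthesis genes had a median of -0.61 with 20 below 0, and 11 were at least 1.5-fold lower, against 4 of the 28 members and 4.14% of all genes. Nsdhl and Lss, enzymes of the path from squalene to cholesterol, lay furthest, at -0.91 and -0.74, and Nsdhl was 2-fold apart between the vectors, at -1.12. The desaturases, with a median of -0.30, lay between the sterol genes and Fasn. On the Tmem54 array the sterol list had a median of 0.13 with 20 of 21 above 0, on the same side as the 5 desaturases, and its widest differences were at Tm7sf2 (0.23) and Hmgcs1 (0.22). These lists were chosen with results known, and the difference between them was not tested.

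Fatty acid activation and binding had a median of -0.21 over 10 genes with Cd74. Acsl5 and Fabp4 were the furthest measured, each at -0.61, and Acsl1, which like Acsl5 joins coenzyme A to long chain fatty acids, read 3579 with the empty vector, 2463 with Cd74 and 4513 with Tmem54. Acsl1 was thus lowest with Cd74 and highest with Tmem54. Among partners of the elongation cycle, Hacd4, a dehydratase of that cycle, was lower with Cd74 (197 to 70.4, -1.42 ± 0.22) and higher with Tmem54 (289, 0.54 ± 0.21). Scd3, another stearoyl-CoA desaturase gene, differed by -0.50 with Cd74 and 0.01 with Tmem54, and Scd4 by -0.09 and -0.15. Cyb5r3, the reductase that passes electrons to cytochrome b5 for desaturation, differed by -0.44 and 0.17.

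Of 11 lipid droplet genes, 1 (Plin5) was at least 2-fold lower with Cd74, beside 1.4% of all genes, and with Tmem54, beside 0.812%. Plin5, the perilipin that links droplets to mitochondria, read 130 with the empty vector, 22.4 with Cd74 and 62.2 with Tmem54, with differences of -2.46 ± 0.28 and -1.07 ± 0.22. Plin5 thus lay on the other side of the control from Plin2 on the Cd74 array. Like Gpam it was dim and highest with the empty vector, and its differences with Cd74 and Tmem54 share the single control array. Hilpda, a hypoxia-induced inhibitor of triglyceride lipase, differed by 0.58 with Cd74, and Hsd17b13, a droplet enzyme of liver, by -0.91 with Tmem54.

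The medians of the remaining lists lay close to 0, between -0.04 and 0.07 with Cd74 and between -0.01 and 0.05 with Tmem54, while single genes lay further out. Other glycerolipid acyltransferases had 0 of 17 genes at 1.5-fold with Cd74 and were led by Lpcat3, which remodels phosphatidylcholine, at -0.49, and the glycerol-3-phosphate dehydrogenase gene Gpd1 at 0.27. With Tmem54 Gpat2 at -0.57 and Lpcat3 at 0.17 lay furthest. Phospholipid synthesis had 1 of 19 at 1.5-fold, the ethanolamine kinase gene Etnk2 at -0.66 with Cd74 and -0.87 with Tmem54. Of all genes, 4.14% and 2.49% were at least 1.5-fold lower in these comparisons. Next came Pcyt1b at -0.46 with Cd74 and Ptdss1 at 0.13 with Tmem54, and between the vectors Pcyt1b (-0.50) and Chka (0.37), enzymes of choline and serine phospholipids. The lists for triglyceride breakdown and export (9 genes) and mitochondrial fatty acid synthesis (10 genes) had 0 genes at 1.5-fold in either comparison with the control. Their widest differences with Cd74 were at Lipe (-0.30), Abhd5 (0.29), Oxsm (0.27) and Cbr4 (0.21), and with Tmem54 at Lpl (0.21), Tm6sf2 (-0.18), Acsf3 (0.18) and Ndufab1 (0.08). Fatty acid oxidation had 1 of 23 genes 2-fold higher with Cd74, where 1.02% of all genes were. This was the thioesterase gene Acot2, at 1.67 ± 0.20 and at 2.14 between the vectors. Cpt1b, a carnitine palmitoyltransferase, was lower on both vector arrays, at -0.77 and -0.89, at a dim probe. Ehhadh, a peroxisomal enzyme, differed by 0.51 ± 0.42 with Tmem54, and Hadh, a mitochondrial one, by -0.46 between the vectors.

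**Figure D4:**
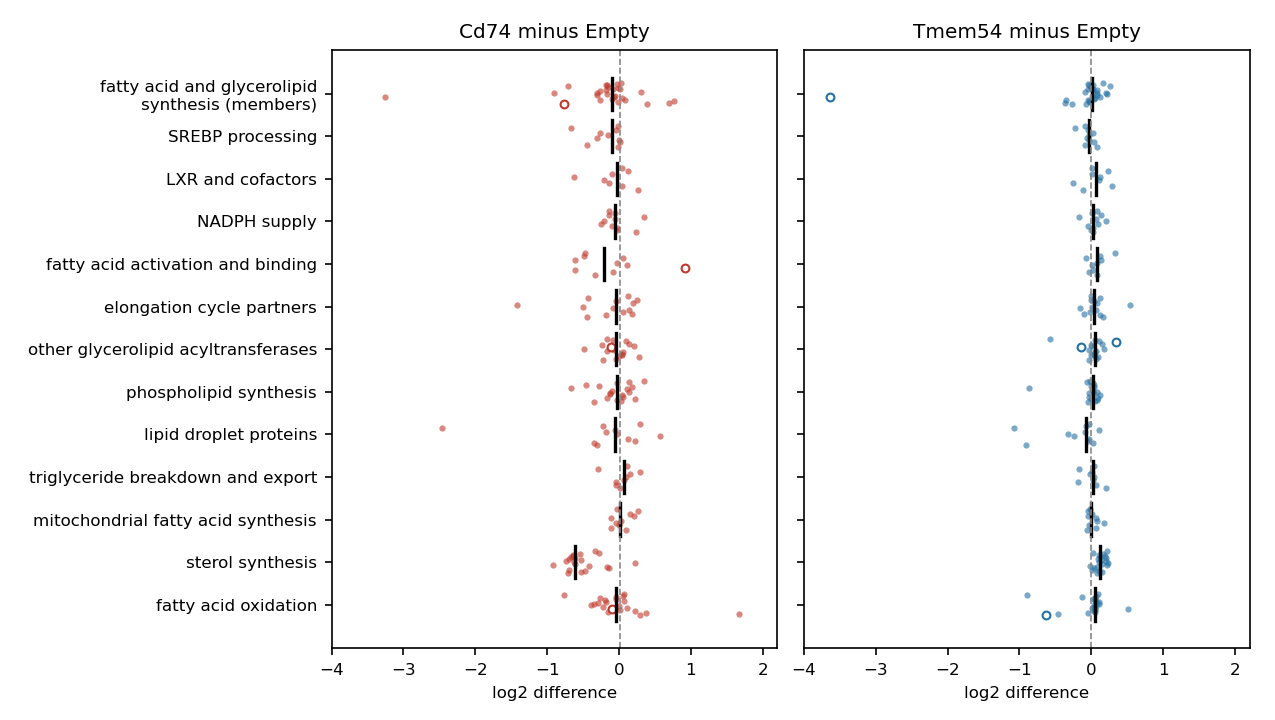
Log2 difference from the empty vector of each detected gene of the set and of 12 neighbouring lists, with black bars for the list medians, the dashed line for the median of all genes and open points for bounds. The sterol synthesis genes lie to the left as a group with Cd74 (median -0.61), while the members centre near 0 (median -0.09) with single genes far out.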

How the data were processed

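Total RNA of 3 cultures of Hepa1c1c7 cells was measured on 3 Agilent arrays of 1 colour, 1 per vector, grouped by the transfection label. Each spot's deposited intensity is background-subtracted and detrended within its array, per the file headers. The software was Agilent Feature Extraction 12.0.3.1 in the submitters' processing notes. The deposited value table holds a linear ratio, namely the processed signal over 1 constant per array (580.3, 559.8 and 580.7), as a comparison with the arrays showed. Its column medians were 0.0409, 0.0393 and 0.0390, so scale and direction are known and no gene was centred, while the choice of the constants is not given in the sources used here. Flags of 0 or 1 for spots well above background are the authors' deposited software output.

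From these, control spots and 119 to 135 outlier spots per array were left out, spots of a probe were averaged as log2, and each array was set to its 75th percentile. Members were found by the gene name in the array files. A gene took its brightest probe among those well above background on at least 1 array. Gene names of other probes came from a RefSeq table of GRCm38.p6, matched for 33757 by accession, 9870 by symbol and 310 by synonym, with 12657 unnamed. Probe positions are those of the files on mm9. The members and lists were chosen with earlier results of these data known. All members are accounted for, and of each neighbouring list the text names the genes at least 2-fold apart and the 2 measured genes furthest from 0 in each contrast. Srebf2, Mbtps1, Gpat3, Gpat4, Scd4 and the markers Dcn, Pdgfrb, Col1a2, Pdgfra and Des were named beside this rule after their values were seen. The counting steps were tested on simulated data, with differences planted only at probes brighter than the array's 75th percentile. Differences planted at dim probes were not part of that test. Its noise was set smaller than the model error of the arrays, so it checked the counting and not how reliable a call is. Alternatives were normexp correction (limma 3.58.1, R 4.3.3), centring on the median, quantile normalization, both filters on dim probes, other probes of a gene and the value table. Other work used Python 3.11.15, numpy 2.4.6 and pandas 2.3.3. The number of arrays limits the precision.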

Additional observations from a re-analysis of the deposited data

How the results depend on the processing

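Each vector has 1 array, so no array could be left out of a group, and no paired analysis was possible because each group holds 1 sample. Over the main setting and all 8 alternatives, the median over the members ranged from -0.11 to -0.07 for Cd74 against the empty vector. The ranges were -0.02 to 0.03 for Tmem54 against it and -0.15 to -0.10 for Cd74 against Tmem54. Counts of members at least 2-fold apart were 1 for Cd74 against the empty vector, 1 for Tmem54 against it and 2 for Cd74 against Tmem54. With bright probes only they fell to 0 and 0 in the comparisons with the empty vector, since Gpam is too dim for that filter. With next-brightest probes, which exist for 18 members and for neither Gpam, Dgat2 nor Scd2, they were 0 in all 3 contrasts. With probes well above background on both arrays only, the Tmem54 count against the empty vector was 0, since Gpam is a bound there. Normexp correction left 1 for Cd74 against Tmem54, since Dgat2 fell to 0.99. Centring on the median, quantile normalization, the mean over probes and the deposited table kept all 3 counts. Of the values for single genes and steps under an alternative, 764 moved by less than the model error and 27 by more. Of these 27, 17 came with next-brightest probes and 7 with normexp correction. Many of the 764 could hardly move. The deposited table (105 values) differs by 1 constant per array and centring on the median (105) by 1 shift per contrast. Both filters on dim probes (101 and 90) leave the value of each gene kept unchanged. None of the differences that were at least 1.5-fold as reported changed sign. Other probes could alter only Acss2, since the rest had 1 detected probe. The Cd74 difference of Acss2 from the empty vector came to -0.08 with its next-brightest probe. Acacb, at -0.002 between the vectors, came to 0.60 with its next-brightest probe. Dim signals limit Gpam and Mogat1 most.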

Other observations

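One further probe of Lpin2, listed for a predicted transcript (chr17:71550535-71550594, build mm9), read 34.9 with the empty vector, 36.0 with Cd74 and 14.02 with Tmem54, where it was not well above background. The empty vector was at least 2.51-fold above Tmem54 at this probe, while the 3 Lpin2 probes measured on all arrays were lower with Tmem54 by no more than 1.27-fold. Lpin1 had 4 detected probes, and all 4 lay below the empty vector with Tmem54, from -0.29 to -0.05, although its brightest probe was the closest to 0. These values rest on dim probes with no replicate.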
